A study of Triticum polonicum with 10 samples.

Results

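Supply of an iron salt was compared with no iron salt in roots of Triticum polonicum, known as dwarf Polish wheat, a tetraploid that carries the subgenomes A and B. The plants received no cadmium according to the library codes. The comparison used 5 of the 10 RNA sequencing libraries of the series, chosen by code: A50CK, A200CK, B50CK and B200CK, with iron, against ACK, without. The control is a single library. ACK received neither salt and is called the control below. A50CK and A200CK received FeCl3 at 50 and 200 µM. B200CK received Fe2(SO4)3 at 200 µM. B50CK is coded as Fe2(SO4)3 at 50 µM without cadmium, but its treatment text reads 200 µM Fe2(SO4)3 with 80 µM CdCl2. The text of B50CK thus contradicts its code both in dose and in cadmium, and the sources used here do not settle which is right. Values below follow the code, and the main counts that use B50CK are also given without it.

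All 5 libraries came from roots of 4-week seedlings collected after 1 week of treatment. The labels speak of 3 biological replicates per treatment, yet each treatment has 1 library, and the sources used here do not say whether it pools plants. The 4 iron libraries differ in salt, dose or both, so the spread within a treatment is unknown. One formula unit of Fe2(SO4)3 holds more iron than one of FeCl3, so equal concentrations of the salts did not supply equal iron. The remaining 5 libraries carry cadmium by their codes: Acd, with 80 µM CdCl2 and no iron salt, and A50Cd, A200Cd, B50Cd and B200Cd, with cadmium and iron. B50Cd (text: 50 µM Fe2(SO4)3 without cadmium) and B200Cd (text: 50 µM Fe2(SO4)3 with cadmium) also contradict their codes.

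Grasses take up iron mainly by secreting phytosiderophores, small chelators made from methionine by way of nicotianamine, and by importing the iron complex through transporters of the yellow stripe family. Genes for synthesis, export and import of these chelators are typically more active in roots short of iron, whereas ferritin, the iron storage protein, is typically more abundant when iron is ample. Cadmium can enter roots through some of the same metal transporters. The files do not pair the gene IDs with names, and no annotation was used here, so the genes below could not be placed in these pathways. For the same reason the label of root tissue was not checked against marker genes.

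The control had the lowest total, at 13635628 counts, and the iron libraries held 13997374 to 18184796. Between 73346 genes (control) and 79493 genes (B200CK) had a count. The 100 most abundant genes took 10.4% of the counts in the control and 8.59% to 11.2% in the iron libraries. The mean gene length weighted by counts was 1301 bp in the control, 1285 bp in A50CK, 1342 bp in A200CK, 1346 bp in B50CK and 1397 bp in B200CK. Levels below are in CPM, counts scaled to a common library size with the trimmed mean of M-values (TMM) over all 10 libraries.

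The control stood apart from the iron libraries. Over the 25430 genes whose mean in the 5 libraries reached 5 CPM, the log2 ratio to the control had a standard deviation (SD) of 1.04 in A50CK, 1.22 in A200CK, 1.02 in B50CK and 1.38 in B200CK. Between pairs of iron libraries the same SD was 0.63 to 0.87, so every iron library was farther from the control than from any other iron library. The nearest pair was A50CK and B50CK, which the codes place at the same concentration of different salts, at 0.63. The other pair of matching concentration, A200CK and B200CK, followed at 0.71. The FeCl3 pair differed by 0.76 and the Fe2(SO4)3 pair by 0.87. Compared singly with the control, A50CK held 3513 genes past 2-fold upward and 2960 downward, and B200CK 4956 and 5664. A200CK held 3917 and 4717, and B50CK 3454 and 3382. Both libraries of 200 µM by code thus lay farther from the control than both libraries of 50 µM.

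**Figure D1:**
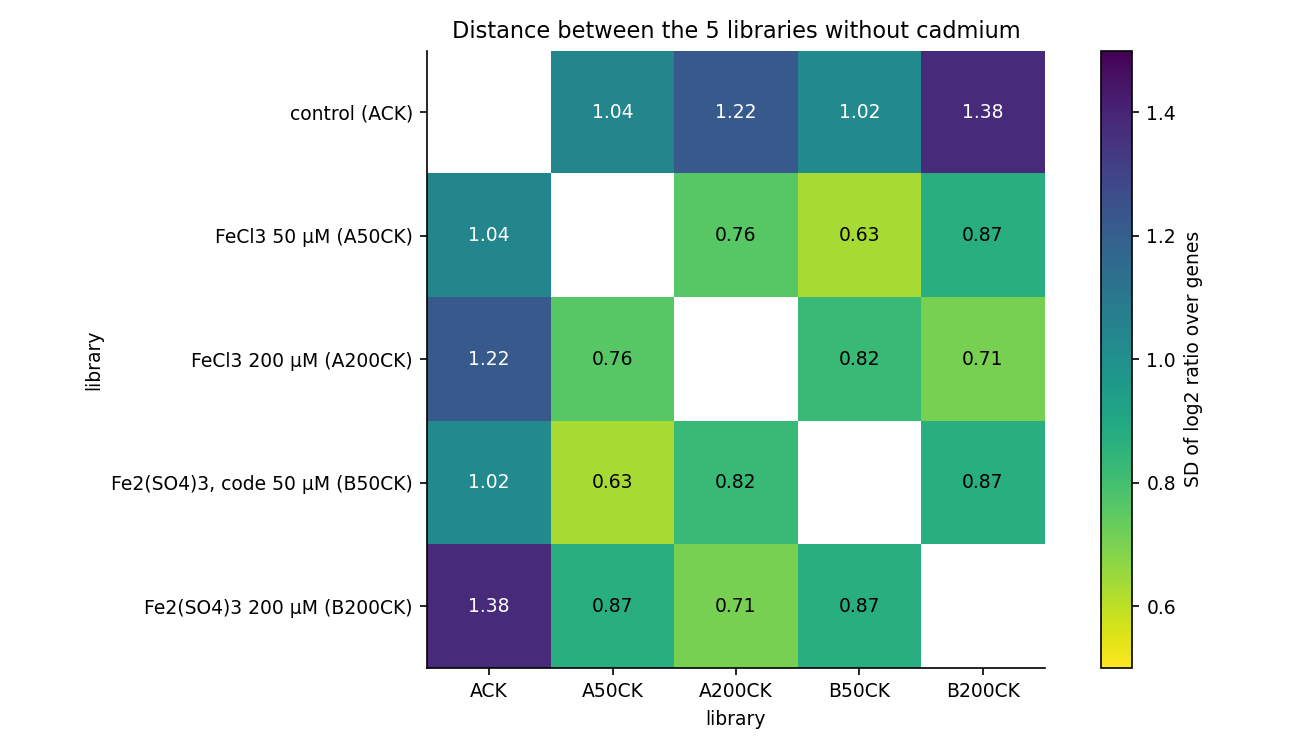
Each cell gives the SD of the log2 ratio (CPM + 0.5) between a pair of libraries, over genes whose mean reached 5 CPM. The cells that involve the control (ACK) range from 1.02 to 1.38 and those between iron libraries from 0.63 to 0.87.

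With all 4 iron libraries set against the control, 213 of 58726 genes tested passed an adjusted p of 0.05 in edgeR's quasi-likelihood test (0.363%). Of these, 200 were lower with iron (0.341%) and 13 were higher (0.0221%). The fit has 3 residual degrees of freedom, all from the iron libraries. The control is assumed to vary as they do, and their differences in salt and dose count as error. Without adjustment, 5819 higher and 4988 lower genes had a p under 0.05, where 2936 in all would be expected from the number of genes tested. The count moved widely with the libraries used: 47 genes passed without A50CK, 36 without A200CK, 99 without B200CK and 213 without B50CK, of which 118 were shared with the 213 from all 4. It was 6 when libraries were grouped by treatment text, which puts B50Cd in place of B50CK, 3200 with DESeq2 and 3 with limma on FPKM, where all 3 were higher. In bulk roots, fewer cells of a type and less RNA per cell cannot be told apart.

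The 200 genes that fell with iron were moderately expressed in the control and low in the iron libraries. Their median level was 25.2 CPM in the control against 1.84 CPM in A50CK, 1.45 CPM in A200CK, 1.71 CPM in B50CK and 1.38 CPM in B200CK. The median fitted log2 fold was -3.87, against 0.15 over all genes tested. Together they took 1.12% of the counts in the control and 0.112% to 0.140% in the iron libraries. Of the 200, 31 had no count in at least 1 iron library and 3 had none in any, or 31 and 5 without B50CK. Their median length, 1051.5 bp, compares with 1131 bp over all genes tested. Only 117 of the 200 had a mean of at least 5 CPM, and with the test limited to such genes 14 passed, all lower. This mean covers more iron libraries than controls, so genes higher with iron reach it more readily.

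The 13 genes that rose with iron had a median of 0.46 CPM in the control and of 15.8 to 18.0 CPM in the iron libraries. Their median fitted log2 fold was 4.96. It was 4.65 with the 2 genes that had no count in the control set to the bound that a floor of 3 counts in that library gives. The 11 genes with a count in the control had fitted log2 folds of 3.69 to 7.72. In 12 of the 13 the mean was at least 5 CPM.

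**Figure D2:**
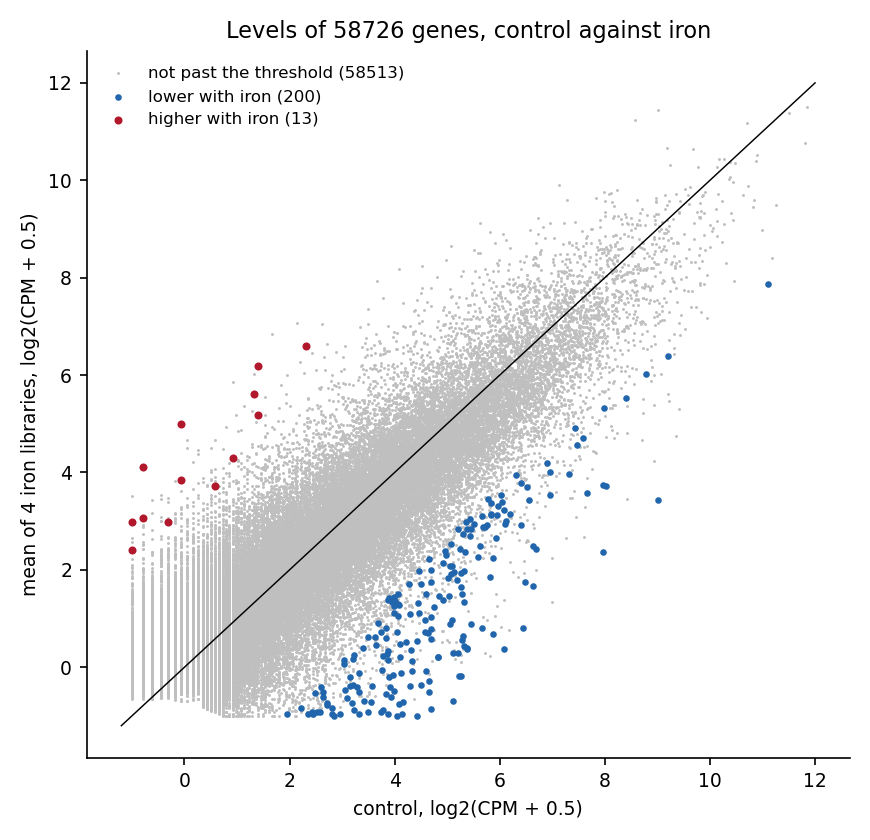
Each point is 1 of the 58726 genes tested, with its level in the control on the x axis and the mean of its 4 iron libraries on the y axis, both as log2(CPM + 0.5). The 200 genes lower with iron (blue) lie below the diagonal mostly at low levels with iron, and the 13 higher genes (red) lie above it.

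The files give no gene names, so a pair in each direction is described by ID. Each pair had the greatest fitted folds among genes past the threshold whose mean reached 5 CPM. Larger folds occurred under that mean. TraesCS5A01G549900, with no count in any iron library, had a log2 fold of -11.35. TraesCS5B01G374600, with no count in the control, had 9.31. TraesCS7B01G301100, on chromosome 7B by its ID, had no count in the control. It reached 10.8 CPM in A50CK, 4.04 CPM in A200CK, 7.49 CPM in B50CK and 9.09 CPM in B200CK, at least 34.3-fold higher when the 4 iron libraries are pooled and the control is set to 3 counts (edgeR adjusted p = 0.0410). By the rule that chose it, all 4 iron libraries lay above the control. The call was lost in 9 of 14 alternative settings, with an adjusted p of 0.00119 to 0.0947.

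TraesCS5A01G404000, on chromosome 5A, had 1 count in the control, or 0.077 CPM. Its level was 17.4 CPM in A50CK, 15.8 CPM in A200CK, 11.4 CPM in B50CK and 25.3 CPM in B200CK. The pooled iron libraries were 229.9 times the control, with a 95% counting interval of 41.2 to 9089, and the fitted log2 fold was 7.72 ± 0.98 (SE, edgeR adjusted p = 0.0308). The call was lost in 5 of 14 settings, with an adjusted p of up to 0.0713. Counting intervals and floors cover counting error only.

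Of the genes lower with iron, TraesCS5A01G432700 had 25.3 CPM in the control, 0.167 CPM in A50CK, 0.0669 CPM in B50CK and no count in A200CK or B200CK. The control was 419.8 times the pooled iron libraries, with a counting interval of 162 to 1549.8, and the fitted log2 fold was -8.52 ± 0.77 (SE, edgeR adjusted p = 0.0133). The call was lost in 2 of 13 settings. One was grouping by treatment text, where B50Cd at 2.13 CPM takes the place of B50CK and the log2 fold was -5.43 (edgeR adjusted p = 0.158). TraesCS6B01G186000, on chromosome 6B, showed the same order, with 34.2 CPM in the control, 0.447 CPM in A50CK, 0.134 CPM in B50CK and no count at 200 µM of either salt. Its fitted log2 fold was -7.74 ± 0.91 (SE, edgeR adjusted p = 0.0249), and the call was lost in 4 of 14 settings, with a log2 fold of -6.48 and an adjusted p of 0.10 by treatment text.

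Fold size gave a count that does not rest on the fit. At least 2-fold higher than the control in all 4 iron libraries were 1548 of the 25430 genes at 5 CPM (6.09%), and 1558 were at least 2-fold lower in all 4 (6.13%). At 4-fold the counts were 290 higher (1.14%) and 275 lower (1.08%). In 240 genes (0.944%) the level was 2-fold higher in 1 iron library and 2-fold lower in another. This count was 133 without B50CK, 157 without A50CK, 144 without A200CK or B200CK, and 435 by treatment text. With CPM by library totals alone, the median log2 ratio over all genes moved from -0.07 to 0.06 and the split shifted to 1937 higher and 1211 lower, or 371 and 224 at 4-fold. Without B50CK, 2012 genes were 2-fold higher and 2056 lower in the other 3, and 446 and 445 passed 4-fold. With fewer libraries, more genes can pass in all of them and fewer can be split, whichever library is left out. Having 1 control for all 4 ratios, these counts include every gene in which the control itself was high or low. The mean of 5 CPM covers the 4 iron libraries and 1 control. A gene high only with iron reaches it more readily than one high only in the control. At a mean of at least 1 CPM, 2697 genes were 2-fold higher and 2743 lower, and 344 and 550 passed 4-fold.

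The 2-fold higher genes took 1.77% of the counts in the control and 7.24% to 11.4% in the iron libraries. The lower genes took 13.4% in the control and 2.78% to 4.27% with iron. Their median level fell from 39.7 CPM in the control to 10.6 CPM in A50CK, 7.87 CPM in A200CK, 10.3 CPM in B50CK and 7.30 CPM in B200CK. That of the higher genes was 3.46 CPM in the control, 16.7 CPM in A50CK, 16.4 CPM in A200CK, 14.0 CPM in B50CK and 21.7 CPM in B200CK. B200CK stood farthest from the control in both sets.

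The most abundant genes past 4-fold carried high levels in every library. TraesCS3B01G894800LC, on chromosome 3B, had 138.9 CPM in the control, 867 CPM in A50CK, 1118 CPM in A200CK, 619.7 CPM in B50CK and 1417 CPM in B200CK. Its fitted log2 fold of 2.89 ± 0.76 (SE) did not pass (edgeR adjusted p = 0.134). TraesCS5A01G548600 had 49.0 CPM in the control, 616 CPM in A50CK, 756 CPM in A200CK, 336 CPM in B50CK and 618 CPM in B200CK, a log2 fold of 3.60 ± 0.76 (SE, edgeR adjusted p = 0.0875). The suffix LC is part of the first ID, which the files do not explain.

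In the other direction, TraesCS2B01G282400 had 2215 CPM in the control and 190.1 CPM, 170.1 CPM, 286 CPM and 315 CPM in A50CK, A200CK, B50CK and B200CK. It fell by 3.18 ± 0.50 on the log2 scale (SE, edgeR adjusted p = 0.0466), and 9 of 14 settings lost the call, with an adjusted p of up to 0.139. TraesCS7A01G317500 had 2329 CPM in the control and 525 CPM, 232 CPM, 333 CPM and 324 CPM in the same 4 libraries, a log2 fold of -2.69 ± 0.52 (SE) that did not pass (edgeR adjusted p = 0.0747). By the rule that chose them, the groups did not overlap for these 4 genes.

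**Figure D3:**
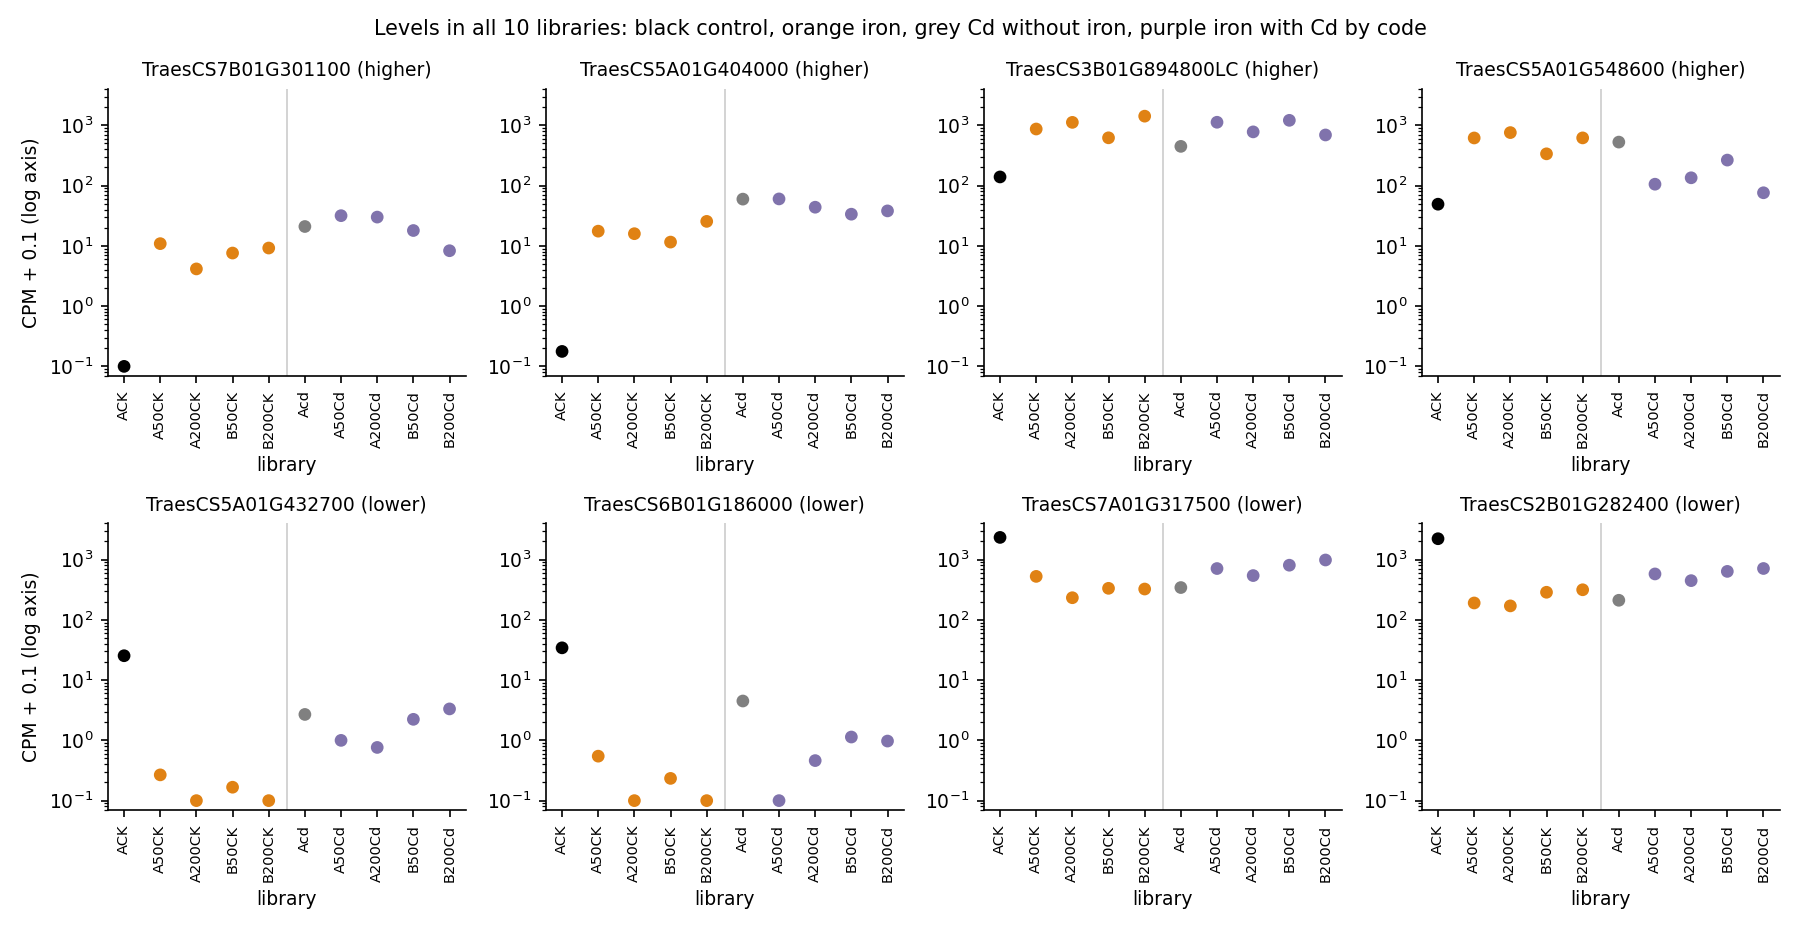
Points give the level of 8 genes in each of the 10 libraries, as CPM + 0.1 on a log axis, with the libraries coded without cadmium left of the line. In all 8 the control (black) lies apart from the 4 iron libraries (orange) by the rule that chose the genes. Acd (grey), which also lacks an iron salt, lies away from the control on the iron side.

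One other library received no iron salt. Acd differs from the control by cadmium, and the 2 comparisons share the control, so their values are set side by side and no overlap is given. The median level of the 200 genes lower with iron was 25.2 CPM in the control, 1.38 to 1.84 CPM in the 4 iron libraries and 4.12 CPM in Acd. For the 13 higher genes it was 0.46 CPM, 15.8 to 18.0 CPM and 20.8 CPM. For the 1558 genes 2-fold lower the median log2 ratio to the control was -1.65 to -2.23 in the iron libraries and -1.74 in Acd. For the 1548 genes 2-fold higher it was 1.76 to 2.40 and 1.55. TraesCS2B01G282400, at 2215 CPM in the control, had 211 CPM in Acd, and TraesCS5A01G404000, at 0.077 CPM in the control, had 59.5 CPM. The 2 libraries without iron salt thus did not share these levels. These genes were chosen because the control lay apart from the iron libraries, and that choice partly sets the side on which Acd lies. In 75.1% of the 1548 and 83.8% of the 1558 genes, Acd lay nearer to the iron mean than to the control. Over all genes at 5 CPM it did so in 63.4%. An effect of iron and a deviation of the single control library cannot be told apart from these data.

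**Figure D4:**
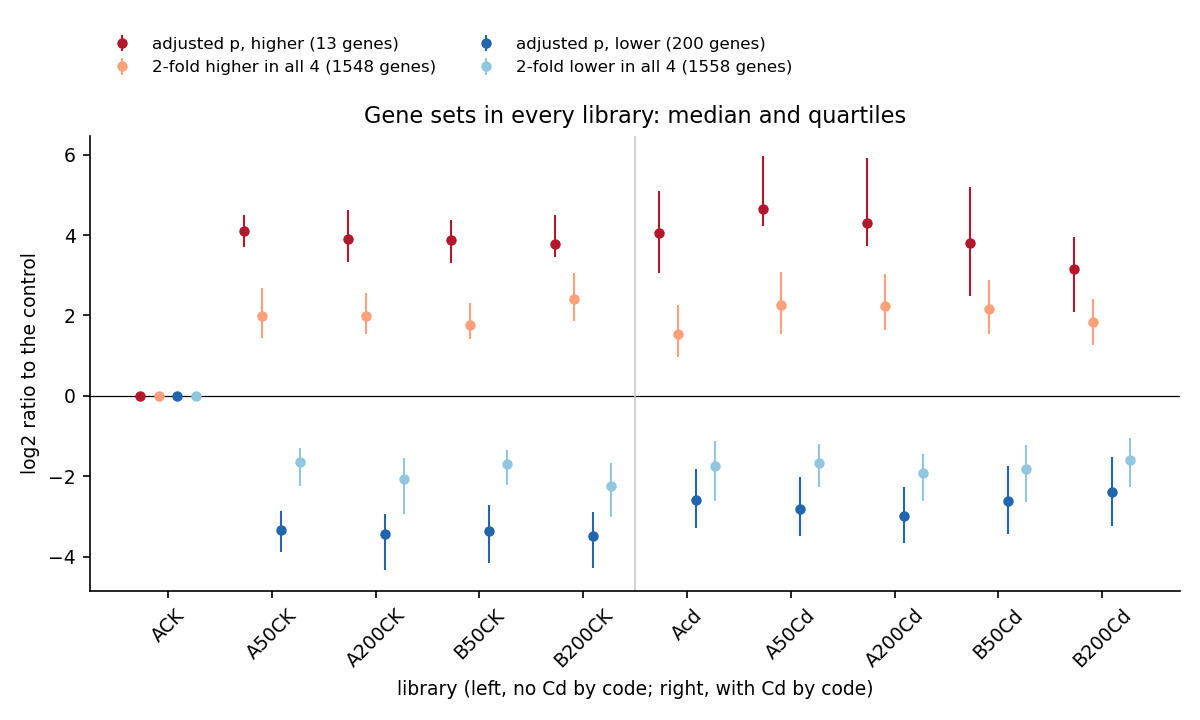
Points give the median and lines the quartiles of the log2 ratio to the control (CPM + 0.5) in each library, for the genes past the edgeR threshold and for those 2-fold apart in all 4 iron libraries. Acd, without iron salt, has medians of 4.06 and 1.55 in the higher sets and of -2.58 and -1.74 in the lower sets, on the side of the iron libraries. The sets were chosen because the control lay apart from the iron libraries, which partly sets that side.

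The libraries coded with cadmium give the same contrast in separate libraries, 4 with iron against Acd. Of the 1548 genes 2-fold higher with iron without cadmium, all 4 iron libraries lay above Acd in 782 (50.5%), against 33.9% of all genes at 5 CPM, and below it in 122 (7.88%), against 29.2%. At least 2-fold above Acd in all 4 were 158 (10.2%), against 4.98%. The median log2 ratio of the set was 0.52, against 0.05 over all genes. By library totals the medians were 0.28 and -0.19. Without B50Cd and B200Cd, both remaining iron libraries lay above Acd in 73.1% of the set and in 43.9% of all genes. By treatment text the shares were 42.8% and 28.3%. That grouping puts B50CK, which helped to choose the set, in place of B50Cd, so its libraries are not all separate.

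For the 1558 lower genes, all 4 iron libraries lay below Acd in 462 of them (29.7%), against 29.2% of all genes, and above it in 458 (29.4%), against 33.9%, with a median log2 ratio of 0.02. The share below Acd was thus near that of all genes. At least 2-fold below Acd in all 4 were 44 (2.82%), against 1.36%, and at least 2-fold above 72 (4.62%), against 4.98%. Without B50Cd and B200Cd the share below was 41.4%, against 38.4%. That 2-fold below was 5.58%, against 2.16%, and that 2-fold above 9.05%, against 10.6%. Of the 200 genes that fell in the test, all 4 iron libraries with cadmium lay below Acd in 61 (30.5%; all genes tested, 29.6%) and above it in 47 (23.5%; 28.6%), with a median log2 ratio of -0.12. At least 2-fold below Acd in all 4 were 10 (5%; all genes tested, 1.96%) and at least 2-fold above 9 (4.5%; 3.59%). Without B50Cd and B200Cd, both remaining libraries lay below Acd in 97 (48.5%; 39.4%) and at least 2-fold below in 35 (17.5%; 3.56%). Both lay at least 2-fold above it in 13 (6.5%; 7.68%). By library totals, all 4 lay below Acd in 40.2% of the 1558 genes, against 42.1% of all genes at 5 CPM. They lay above it in 20.7%, against 22.2%. For the 200 genes these shares were 39.0% below, against 40.1% of all genes tested, and 17.0% above, against 20.4%.

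Of the 13 genes that rose, 2 had all 4 iron libraries with cadmium above Acd (15.4%; all genes tested, 28.6%) and none had all 4 below (29.6%), with a median log2 ratio of 0.25. Without B50Cd and B200Cd, 10 of the 13 had both remaining libraries above Acd (76.9%; 38.6%), and the median was 0.94. By treatment text, which puts B50CK in place of B50Cd, 2 were above (15.4%; 24.8%) and 0 below (24.2%), with a median of 0.07. B50CK helped to choose these genes. By library totals with the 4 libraries by code, 0 were above Acd (all genes tested, 20.4%) and 2 below (15.4%; 40.1%), with a median of -7.3e-05. Lying on 1 side of Acd was asked of 4 libraries or of 2, so these shares are not directly comparable. The part of the libraries whose code and text contradict was not tested.

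The change of the iron effect with cadmium was tested as an interaction over all 10 libraries by code. The control alone stands for no iron without cadmium, and Acd alone for no iron with cadmium. The fit has 6 residual degrees of freedom, all from the iron libraries. A deviation of the control or of Acd would thus enter the interaction, and its part was not tested. No gene of 63776 passed in edgeR (0%, lowest adjusted p = 0.0808), and 9472 were at an unadjusted p under 0.05, where 3189 would be expected from the number tested. DESeq2 called 2078 and limma on FPKM 49. Without the 3 libraries whose code and text contradict, edgeR called 0. With each iron supply as a term, so that libraries of the same supply by code were paired with and without cadmium, it also called 0 (lowest adjusted p = 0.129), and 8550 genes had an unadjusted p under 0.05. Of the genes with the smallest p, TraesCS4B01G261600 had 202.5 CPM in the control and 9.90 to 12.8 CPM with iron, but 16.0 CPM in Acd and 10.8 to 15.9 CPM with iron and cadmium. Its interaction was 3.84 ± 0.48 (SE, log2, edgeR adjusted p = 0.0808). In this gene only the control stood apart, and all other libraries lay between 9.90 and 16.0 CPM.

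TraesCS5A01G534000 had 56.8 CPM in the control, 5.79 to 11.3 CPM with iron, 1.80 CPM in Acd and 11.8 to 22.5 CPM with iron and cadmium. Its interaction was 5.81 ± 0.71 (SE, edgeR adjusted p = 0.0808), and the level with iron lay below the library without iron when cadmium was absent and above it when cadmium was given. TraesCS3B01G578500 did the opposite, with 9.85 CPM in the control, 33.0 to 53.9 CPM with iron, 31.7 CPM in Acd and 3.16 to 6.40 CPM with iron and cadmium. Its interaction was -5.17 ± 0.69 (SE, edgeR adjusted p = 0.0808). TraesCS5A01G404000, described above, had an interaction of -8.16 ± 0.99 (SE) at the same adjusted p, with 33.4 to 59.9 CPM in the libraries with iron and cadmium beside 59.5 CPM in Acd.

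Each salt was also set against the control. For FeCl3, with 2 libraries against 1, edgeR called 2 of 58726 genes, both lower (0.00341%), and 7452 had an unadjusted p under 0.05. TraesCS5A01G460500 had 52.3 CPM in the control, 0.112 CPM in A50CK and 0.0603 CPM in A200CK, a log2 fold of -9.08 ± 0.66 (SE, edgeR adjusted p = 0.0248). In the sulfate libraries it had 2.34 CPM in B50CK and 1.76 CPM in B200CK, and in Acd no count. TraesCS6A01G033000 had 67.4 CPM in the control, 0.223 CPM in A50CK, 0.241 CPM in A200CK, 2.14 CPM in B50CK and 1.53 CPM in B200CK. Its FeCl3 fold was -8.10 ± 0.59 on the log2 scale (SE, edgeR adjusted p = 0.0248). Both genes fell short of the threshold in 5 of 11 settings, with an adjusted p of up to 0.173 and 0.160. Leaving out B50CK raised the count of genes called for FeCl3 to 586 and leaving out B200CK to 1049, while leaving out A50CK or A200CK lowered it to 0.

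No gene passed as higher with FeCl3 in edgeR, where 3990 higher genes had an unadjusted p under 0.05, while DESeq2 called 1474 in both directions and limma on FPKM 0. The smallest p-values belonged to TraesCS3B01G026700, with no count in the control, 11.1 CPM in A50CK, 8.44 CPM in A200CK, 3.48 CPM in B50CK and 2.58 CPM in B200CK, and to TraesCS3A01G509600 (edgeR adjusted p = 0.129 for both). In TraesCS3B01G026700 Acd had no count either, and no library with iron and cadmium exceeded 0.723 CPM. TraesCS3A01G509600 likewise had low levels in both libraries without iron salt, 0.693 CPM in the control and 0.185 CPM in Acd. It had 43.7 CPM in A50CK, 26.6 CPM in A200CK, 12.6 CPM in B50CK and 11.7 CPM in B200CK, and 2.25 to 7.19 CPM with iron and cadmium.

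For Fe2(SO4)3 by code, edgeR called 0 of 58726 genes (0%, lowest adjusted p = 0.104), 9004 had an unadjusted p under 0.05, DESeq2 called 1880 and limma on FPKM 0. Without B50CK, which leaves 1 sulfate library assumed to vary as the others do, edgeR called 677. TraesCSU01G250400, on no chromosome by its ID, had 249 CPM in the control and 6.81 CPM, 6.45 CPM, 3.01 CPM and 3.52 CPM in A50CK, A200CK, B50CK and B200CK, with 6.25 CPM in Acd. Its log2 fold for Fe2(SO4)3 was -6.22 ± 0.55 (SE, edgeR adjusted p = 0.104). TraesCS6A01G033000 followed at -5.18 ± 0.50 (SE, edgeR adjusted p = 0.104).

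Among genes higher with Fe2(SO4)3, TraesCS4A01G084500LC had no count in the control, 9.10 CPM in A50CK, 4.58 CPM in A200CK, 14.1 CPM in B50CK and 23.1 CPM in B200CK. In Acd it had 0.231 CPM, and with iron and cadmium 1.95 to 10.4 CPM. TraesCS3A01G408700 had 0.539 CPM in the control, 14.3 CPM in A50CK, 8.50 CPM in A200CK, 57.7 CPM in B50CK and 32.6 CPM in B200CK, but 57.3 CPM in Acd. Neither passed (edgeR adjusted p = 0.125 for both). The difference between the salts themselves was not tested here, so a gene past the threshold for one salt is not shown to differ between them.

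The order of the doses by code differed between the sets. Both libraries of 200 µM were below both of 50 µM in 774 of the 1558 (49.7%; all genes at 5 CPM, 26.1%) and above both in 126 (8.09%; 23.5%). Within FeCl3 alone, which does not use B50CK, A200CK was below A50CK in 74.3% of these genes, against 54.4% of all. Among the 1548 genes 2-fold higher, both libraries of 200 µM were above both of 50 µM in 582 (37.6%; 23.5%) and below in 134 (8.66%; 26.1%). Within FeCl3 alone A200CK was above A50CK in 49.0%, against 45.6% of all, and among the 290 genes 4-fold higher in 40.0%. Among the 200 genes that fell in the test, both libraries of 200 µM lay below both of 50 µM in 48 (24.0%; all genes tested, 22.6%) and above both in 19 (9.50%; 23.7%). Within FeCl3 alone A200CK was below A50CK in 118 of the 200 (59.0%; 48.9%) and above it in 72 (36.0%; 50.7%). These sets were chosen on the same libraries, and the order is a description with no test. The order of the salts showed less. Both sulfate libraries lay below both FeCl3 libraries in 16.8% of the lower genes, against 16.0% of all, and above both in 10.8%, against 11.6%. Among the 1548 higher genes they lay below both in 10.3% and above both in 12.2%.

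Genes called by edgeR came from both subgenomes. Of the 200 genes lower in the test, 102 had IDs of subgenome A (24476 tested) and 82 of subgenome B (25696 tested). Subgenome D, which a tetraploid wheat lacks, had 4 (3199 tested), unplaced IDs 5 (658 tested) and IDs outside the TraesCS pattern 7 (4697 tested). IDs with the suffix LC held 21 of the 200 (10439 tested). By fold size, the share of genes 2-fold higher in all 4 iron libraries ranged over the 14 chromosomes from 5.37% to 7.20%, highest on 2B, and the share 2-fold lower from 5.31% to 6.76%. LC IDs had 9.88% higher and 6.56% lower, and IDs of subgenome D 8.27% higher and 10.2% lower, against 6.09% and 6.13% of all. Without B50CK the shares of all genes were 7.90% and 8.07%, those of LC IDs 11.4% and 8.21%, and those of subgenome D 12.1% and 12.6%. Chromosomes then ranged from 6.83% to 9.03% higher, highest on 6A, and from 7.36% to 8.89% lower. Near-identical copies on the A and B subgenomes can share reads, so counts of single members of such pairs are uncertain.

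**Figure D5:**
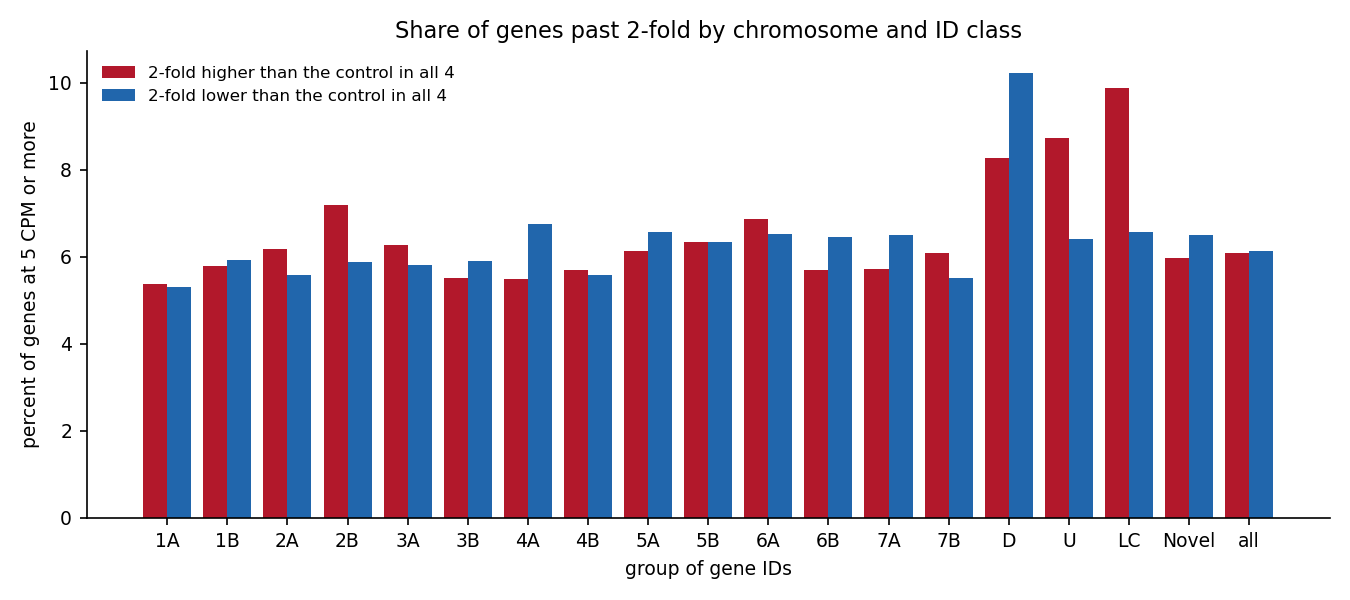
Bars give the percent of genes, among those whose mean reached 5 CPM, that were at least 2-fold higher (red) or lower (blue) than the control in all 4 iron libraries, by chromosome and class of ID. Chromosomes lie between 5.31% and 7.20%, and LC IDs reach 9.88% for higher genes.

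Gene length moved with the ratio to the control. From the shortest of 5 equal bins of genes (93 to 685 bp) to the longest (2007 to 16080 bp), the median log2 ratio went from -0.36 to 0.22 in B200CK, from -0.19 to 0.14 in A200CK, from -0.14 to 0.13 in B50CK and from -0.01 to -0.02 in A50CK. The share of genes 2-fold higher in all 4 iron libraries was 7.73% in the shortest bin and 5.17% in the longest, and that of genes 2-fold lower 6.98% and 4.07%. The part of length in the counts above was not tested.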

How the data were processed

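RNA was sequenced from roots, with 1 library per treatment. The authors deposited whole-number counts and FPKM per gene ID; per the submitters' processing notes, Bowtie2 2.0.6 and TopHat2 2.0.12 were used. The counting program, genome build, strand setting and handling of shared reads were not found in the sources used here. Dividing CPM by FPKM gave 1 length per gene, which was used for gene lengths. Both tables list 274924 IDs, of which 107370 had a count.

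Libraries were grouped by code. Counts were tested with edgeR 4.0.16 (TMM, filterByExpr defaults, quasi-likelihood test, R 4.3.3) with Benjamini-Hochberg adjustment at 0.05 over all genes tested, in 4 comparisons. The 4-against-1 and salt fits used the 5 libraries without cadmium by code, and the interaction fit used all 10. SE was taken as the size of the log2 fold over the root of the quasi-likelihood F. Alternatives were DESeq2 1.42.0, limma 3.58.1 on log2(FPKM + 0.1), other filters and scalings, grouping by treatment text, salt or dose as covariate, and leaving out libraries. Scripts were tested on simulated counts. The labels mark no 2 libraries as separate plants under 1 treatment, and p-values therefore reflect only how these libraries scatter.

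Ratios per library used log2(CPM + 0.5). Named IDs are the 2 of largest fold per direction past the threshold (mean of at least 5 CPM, groups not overlapping), or of smallest p where none passed, and the 2 most abundant past 4-fold; with no names in the files, no more are given. The members and lists were chosen with earlier results of these data known. The comparisons by share above Acd were added after the data had been seen.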

Additional observations from a re-analysis of the deposited data

How the results depend on the processing

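The call count of iron against none (213, with 13 higher and 200 lower) was 3200 (1742 and 1458) with DESeq2, which shared 207 of the 213, and 3 (3 and 0) with limma on FPKM. It was 1800 (630 and 1170) without a filter, 14 (0 and 14) at a mean of at least 5 CPM, 6 (0 and 6) by treatment text, 75 (0 and 75) with salt and 2274 (649 and 1625) with dose as covariate. Without the library whose code and text contradict it was 213, with 32 higher and 181 lower. Leaving out 1 library gave 36 to 213 calls, 0 to 32 higher and 35 to 181 lower. FeCl3 (2 calls) had 1474 with DESeq2, 0 with limma, 2764 without a filter, 0 at 5 CPM, 0 by text, and 0 to 1049 with 1 library left out. Fe2(SO4)3 (0 calls) had 1880 with DESeq2, 3510 without a filter and 69 to 677 with 1 left out. The interaction (0 calls) had 2078 with DESeq2, 49 with limma and 621 without a filter. A lone library left in a salt is assumed to vary like the others. At a mean of at least 1 CPM (45491 genes), 2697 genes were 2-fold higher and 2743 lower, and 344 and 550 passed 4-fold. With 1 library left out the counts were 1589 to 2081, 1776 to 2159, 305 to 446 and 332 to 445. For named genes, 39 of 91 alternative values lost a call, 51 of 176 gained one and none reversed. The causes were not tested. No paired analysis was possible because the labels give no replicate numbers to pair samples by. Pairing by iron supply instead, in the interaction by code and added after the data had been seen, gave 0 calls. Depth limits genes near 3 counts, which is 0.167 to 0.231 CPM in these 5 libraries.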

Other observations

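Of the 274924 gene IDs, 42 had no count in the control and at least 1 CPM in each iron library. In the reverse direction, 39 had at least 1 CPM in the control and no count in any iron library. Without B50CK the counts were 72 and 80, under a rule asked of fewer libraries, which can only raise them.

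Genes past a fold limit were also counted beside their neighbours by ID number on the same chromosome. Of 8123 pairs of genes with consecutive ID numbers, both at 5 CPM, 80 pairs were both 2-fold higher in all 4 iron libraries and 61 both 2-fold lower. A gene whose neighbour was 2-fold higher was itself so in 17.4%, against 5.66% of all genes in such pairs, and for 2-fold lower genes the share was 13.0%, against 5.76%. At 4-fold it was 14.0% against 1.14% for higher and 16.5% against 0.973% for lower genes, from 13 pairs each. The 2-fold higher genes formed 13 runs of at least 3 consecutive IDs, the longest of 4, whereas no run of 2-fold lower genes was longer than 2. Without B50CK, with 8062 pairs, 111 pairs were both higher and 107 both lower at 2-fold, and the shares beside such a neighbour were 18.5%, against 7.44% of all, and 17.0%, against 7.82%. The longest run was then 7 for higher and 3 for lower genes. Consecutive IDs can be copies of 1 gene that share reads, which was not tested.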
